A study of Mus musculus with 3 samples.

Results

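A set of 10 genes of the major histocompatibility complex (MHC) class II pathway was read in skin mast cells of 3 labelled embryonic origins. They were chosen by symbol: the class II chains H2-Ab1, H2-Aa and H2-Eb1, the invariant chain Cd74, the regulator Ciita, the peptide-loading genes H2-DMa, H2-DMb1 and H2-DMb2, and the modulators H2-Oa and H2-Ob. All 10 were present among the 20677 genes of the table, and the set was chosen with their values known, so their levels are a description and carry no test. The mast cells were sorted at 1 week after birth from mice of the background C57BL/6xCD1xFVB that carried an EYFP reporter switched on by Cre after a pulse of 4’OHT, the active form of tamoxifen. The number of mice behind each library and the markers of the sort were not given in the sources used here. The early erythro-myeloid progenitor (early EMP) library came from Csf1rCre/EYFP mice pulsed at embryonic day 8.5. The late EMP library came from Runx1Cre/EYFP mice pulsed at day 8.5, and the fetal haematopoietic stem cell (fetal HSC) library from Runx1Cre/EYFP mice pulsed at day 9.5. Each origin had 1 library, so no difference below has a replicate check, no order of levels can be set against a spread, and no p-value is given. The label follows every cell descended from those that expressed the driver at the pulse, and only the early EMP cells were labelled through Csf1rCre, so driver and origin cannot be told apart in comparisons with them. Where 3 levels are listed below, they stand for early EMP, then late EMP, then fetal HSC. Where 3 counts or fold changes are listed, the first sets late EMP over early EMP, the second fetal HSC over early EMP, and the third sets fetal HSC against late EMP.

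MHC class II molecules are pairs of an alpha and a beta chain that carry peptides of ingested proteins to the cell surface for CD4+ T cells. The invariant chain, encoded by Cd74, fills the groove of a new pair until the DM proteins exchange its remnant for a peptide, and the DO proteins hold DM back. Transcription depends on Ciita, a co-activator that docks on factors bound to conserved X and Y boxes in front of these genes. Dendritic cells, macrophages and B cells carry most class II at rest. Mast cells usually have little and can gain it when stimulated.

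The labelled cell type was checked against its markers. All 12 mast cell markers read were at 1 FPKM or more in every library (FPKM counts fragments per kilobase of transcript, scaled to the mapped fragments of the library), among them Kit, the stem cell factor receptor, at 414, 606 and 405 FPKM. Depth was not given in the sources used here. It was fitted from steps between low values within a preset range, which held the libraries to like sizes. This imprecise estimate is given as fragments behind a value where it helps. Genes at 0 FPKM numbered 3506, 2078 and 5356. The libraries also differed in sex-linked RNA: Xist, the RNA of the silenced X chromosome, stood at 25.6, 0.53 and 52.0 FPKM, and the Y-linked Ddx3y at 20.7, 38.5 and 0.32 FPKM. The part of sex in the differences below was not tested. Nor was the part of the mixed background of the mice, for the class II genes or any others. RNA per cell and the number of cells that carry a transcript cannot be told apart in sorted populations read in bulk.

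The promoters of the class II genes are shown first because members with very different behaviour across the libraries share promoter elements. RefSeq promoter windows (GRCm38.p6, 250 bases before to 50 bases after an annotated start) were held for 7 of the 10 members, in 8 windows; H2-Ab1, Cd74 and Ciita had none. The 2 whole windows below belong to H2-Aa (chr17:34287774-34288073, minus strand) and H2-Eb1 (chr17:34305617-34305916, plus strand), a class II alpha and a beta chain gene that were far higher in fetal HSC than in early EMP. Capitals mark the Y box core GATTGG or its reverse complement, the X box, and the X2 box TGACGTCA, searched on both strands; no match overlaps another. The X box was searched as a pattern of fixed and free positions.
H2-Aa: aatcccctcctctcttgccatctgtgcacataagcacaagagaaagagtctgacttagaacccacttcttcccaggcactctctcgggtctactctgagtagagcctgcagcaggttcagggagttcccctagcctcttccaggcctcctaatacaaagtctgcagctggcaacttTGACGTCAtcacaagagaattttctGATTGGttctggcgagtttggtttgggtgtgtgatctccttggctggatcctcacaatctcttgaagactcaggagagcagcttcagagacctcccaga
H2-Eb1: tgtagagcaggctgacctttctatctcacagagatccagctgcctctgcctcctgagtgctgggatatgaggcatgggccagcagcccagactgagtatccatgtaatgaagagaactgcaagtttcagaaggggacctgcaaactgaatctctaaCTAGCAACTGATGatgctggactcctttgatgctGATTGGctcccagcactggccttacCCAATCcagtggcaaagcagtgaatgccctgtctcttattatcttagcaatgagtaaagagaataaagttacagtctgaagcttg

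Shorter stretches, from 130 to 11 bases before the start, are shown for the DM beta and DO genes, which differed less between libraries. They lie on the plus strand at chr17:34153061-34153180 (H2-DMb1), chr17:34145119-34145238 (H2-DMb2), chr17:34092249-34092368 (H2-Oa) and chr17:34238775-34238894 (H2-Ob).
H2-DMb1: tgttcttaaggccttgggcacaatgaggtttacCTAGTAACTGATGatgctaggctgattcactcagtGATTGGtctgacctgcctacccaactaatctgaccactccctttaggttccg
H2-DMb2: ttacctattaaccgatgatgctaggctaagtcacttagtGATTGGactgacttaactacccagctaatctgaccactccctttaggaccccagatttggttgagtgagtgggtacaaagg
H2-Oa: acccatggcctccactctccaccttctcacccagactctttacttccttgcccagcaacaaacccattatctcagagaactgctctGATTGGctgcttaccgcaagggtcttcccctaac
H2-Ob: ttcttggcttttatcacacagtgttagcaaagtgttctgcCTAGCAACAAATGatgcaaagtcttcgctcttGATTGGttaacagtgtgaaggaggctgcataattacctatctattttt

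A Y box core on the gene's own strand began 44 to 91 bases before the start in 6 of the 7 members with a window: H2-Oa at 44, H2-Aa at 49, H2-Ob at 58, H2-Eb1 at 60, H2-DMb1 at 62 and H2-DMb2 at 91. In H2-DMa the only match lay 199 bases before the start, in 1 of its 2 windows. The other window, chr17:34122582-34122881, overlaps the gene Brd2, which ends at 34122814. Whether these windows hold the start used in these cells was not tested. Over all 32851 promoter windows of the table, 16.1% held this core on either strand at any position, a wider criterion than that used for the members. The X box was found in H2-Eb1, H2-DMb1 and H2-Ob, and in 0.715% of all windows; in these 3 genes the Y box core began 34, 35 and 32 bases after the X box. H2-Aa held the X2 box, 74 bases before the start, as did 1.79% of all windows. Only 8 windows of the table had an X box followed by a Y box core 25 to 45 bases downstream on the same strand (0.0244%), and 4 of them were class II genes: H2-Eb1, H2-DMb1, H2-Ob and H2-Eb2, a class II beta gene next to H2-Eb1. The X box letters and the spacing were set with these windows in view, so the count is a description. H2-DMb1 and H2-Eb1 thus share the X box and the Y box core. Of the exact patterns searched, H2-Aa shares with them only the Y box core, which 16.1% of all windows held on either strand. Looser X box matches were not searched, so a gene without a match cannot be said to lack an X box. H2-DMb1 differed between libraries in another way than H2-Aa and H2-Eb1, as follows.

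**Figure D1:**
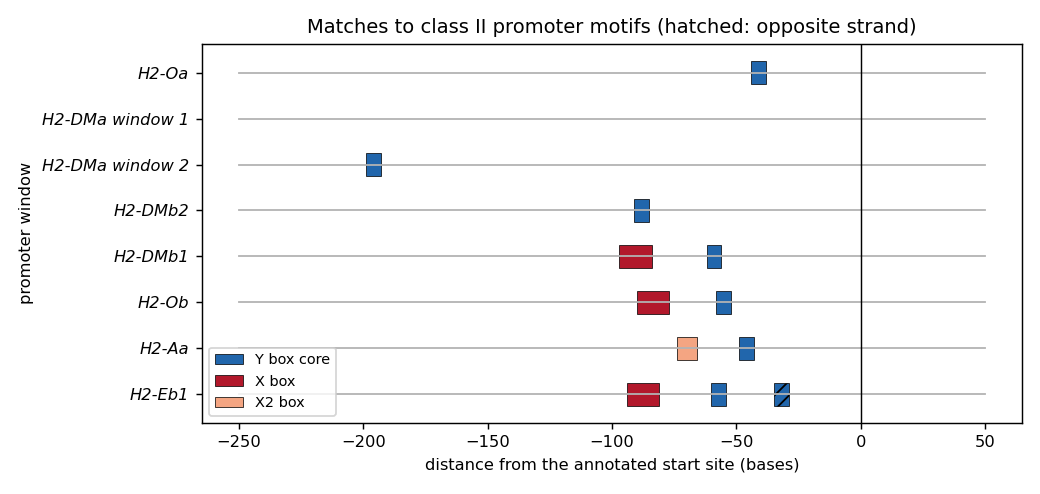
Motif matches in the 8 promoter windows of 7 members, by distance in bases from the annotated start site (vertical line); boxes are X box, X2 box and Y box core, hatched on the opposite strand. Y box cores on the gene's own strand lie 44 to 91 bases before the start in every gene shown except H2-DMa, and an X box precedes them in H2-Eb1, H2-DMb1 and H2-Ob.

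The class II chains and the invariant chain formed a steep series, lowest in the early EMP library, intermediate in the late EMP library and highest in the fetal HSC library. H2-Ab1, the beta chain of the molecule I-A (chromosome 17, 34263227 to 34269418, GRCm38), was at 9.11, 63.2 and 541 FPKM. Its level was 6.93 times higher in late than in early EMP and 8.56 times higher again in fetal HSC. H2-Ab1 ranked 5288th among the genes kept in the early EMP library and 106th in the fetal HSC library. The implied depth puts about 147, 1049 and 9715 fragments behind these values.

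H2-Aa, the alpha chain of I-A (chromosome 17, 34282744 to 34287823), was at 1.87, 22.99 and 110.9 FPKM. H2-Eb1, the beta chain of I-E (chromosome 17, 34305867 to 34316674), was at 1.53, 8.59 and 85.6 FPKM. Their early EMP values rest on about 28 and 35 implied fragments, so their folds over it are less precise than that of H2-Ab1. Both genes kept the same order of libraries as H2-Ab1. The partner chain gene H2-Ea, which C57BL/6 mice do not express, is listed only as the pseudogene H2-Ea-ps, at 0, 0.35 and 0 FPKM, and the second I-E beta gene H2-Eb2 was at 0, 0.02 and 0.04 FPKM.

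Cd74 (chromosome 18, 60803849 to 60812652), which lies outside the MHC, was at 12.9, 84.8 and 639 FPKM. It was the most abundant member in the late EMP and fetal HSC libraries and the second in early EMP, and ranked 91st of the genes kept in fetal HSC. Summed, the 3 chains and Cd74 came to 25.4, 179.5 and 1376 FPKM, or 0.00398%, 0.0292% and 0.215% of all FPKM. On the scale of log2((FPKM + 1)/(FPKM + 1)), used for all log2 fold changes and 2-fold counts here and understating the differences of low genes (values given as times are plain FPKM ratios), the 4 genes differed by 1.92 to 3.06 between late and early EMP, 5.10 to 5.74 between fetal HSC and early EMP, and 2.22 to 3.17 between fetal HSC and late EMP.

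**Figure D2:**
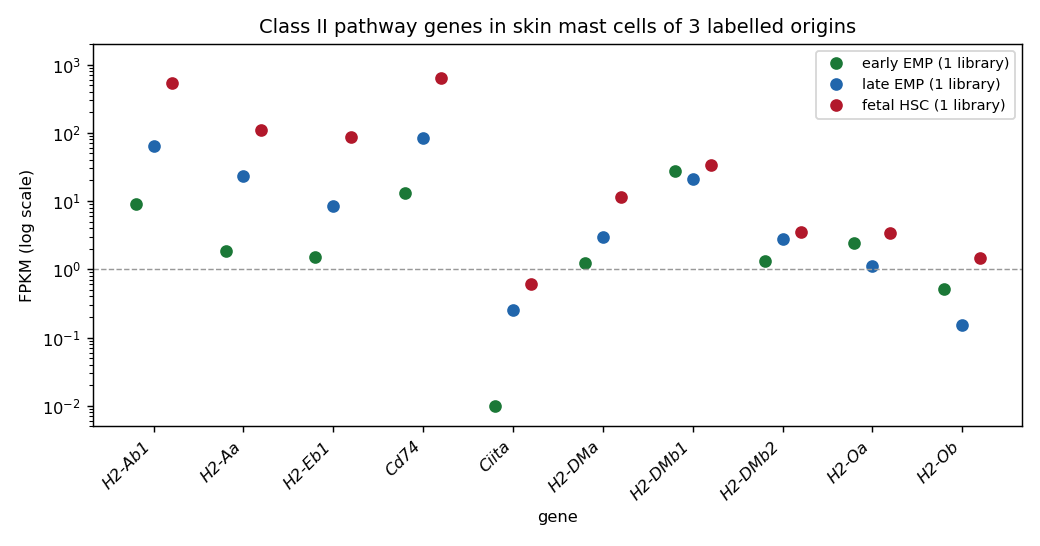
FPKM (log axis) of the 10 members, 1 point per library, with early EMP, late EMP and fetal HSC side by side and a dashed line at 1 FPKM. H2-Ab1, H2-Aa, H2-Eb1 and Cd74 are higher at each step from early EMP to fetal HSC (H2-Ab1 from 9.11 to 541 FPKM), while H2-DMb1 lies between 20.97 and 33.8 FPKM.

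The proportions of these 4 genes differed less between libraries than their levels. Cd74 was at 1.42, 1.34 and 1.18 times the FPKM of H2-Ab1 in the 3 libraries, 1.20 times between the lowest and the highest ratio. H2-Eb1 was at 0.168, 0.136 and 0.158 times H2-Ab1, a span of 1.23 times. H2-Aa was at 0.205, 0.364 and 0.205 times H2-Ab1, so its share was the same in the early EMP and fetal HSC libraries and 1.77 times higher in late EMP. The level of H2-Ab1 itself spanned 59.3 times. FPKM is scaled to transcript length, so these are ratios between levels.

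The peptide-loading genes did not share one pattern. H2-DMa, the alpha chain of DM (chromosome 17, 34119693 to 34139101), was at 1.25, 2.98 and 11.6 FPKM, with log2 fold changes of 0.82, 2.48 and 1.66. It followed the order of the chains with a smaller range. H2-DMb1, a DM beta chain (chromosome 17, 34153191 to 34160229), was at 27.6, 20.97 and 33.8 FPKM, and all 3 of its log2 fold changes lay within 2-fold (-0.38, 0.28 and 0.66). In the early EMP library H2-DMb1 was the most abundant of the 10 members, at 3.04 times the level of H2-Ab1; in the fetal HSC library it was at 0.0626 times that level.

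H2-DMb2, the second DM beta gene (chromosome 17, 34143229 to 34151553), was at 1.33, 2.74 and 3.57 FPKM, a difference of 0.97 on the log2 scale between fetal HSC and early EMP, just under 2-fold. The H2-DMb1 and H2-DMb2 transcripts are alike: 93.9% of 1255 aligned bases were identical, and 27.2% of the 50-base windows of H2-DMb1 also occurred in H2-DMb2. Reads from those windows cannot be assigned to 1 gene by sequence, so each single value is uncertain. Their sum was 28.98, 23.7 and 37.4 FPKM, within 2-fold throughout. DM works as a pair of H2-DMa with a beta chain; H2-DMa lay under the summed beta chains in every library, at 1.25 against 28.98 FPKM in early EMP and 11.6 against 37.4 FPKM in fetal HSC.

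The modulators H2-Oa (chromosome 17, 34092379 to 34095234) and H2-Ob (chromosome 17, 34238905 to 34245908), the chains of DO, were low everywhere and lowest in late EMP. H2-Oa was at 2.40, 1.12 and 3.43 FPKM, with log2 fold changes of -0.68, 0.38 and 1.06. H2-Ob was at 0.51, 0.15 and 1.46 FPKM, resting on about 19, 6 and 59 implied fragments. Their order of libraries therefore differed from that of the chains. H2-Ob reached 1 FPKM only in the fetal HSC library and so was kept through the library where it is high.

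Ciita (chromosome 16, 10480014 to 10531064), the regulator, was at 0.01, 0.25 and 0.60 FPKM. It was the only member below 1 FPKM in every library. The order is that of the chains, but 0.01 is the smallest step the table can show, so no fold is given over the early EMP library. The table gives 1 value per gene, so the transcripts from its cell-type-specific promoters were not read apart.

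**Figure D3:**
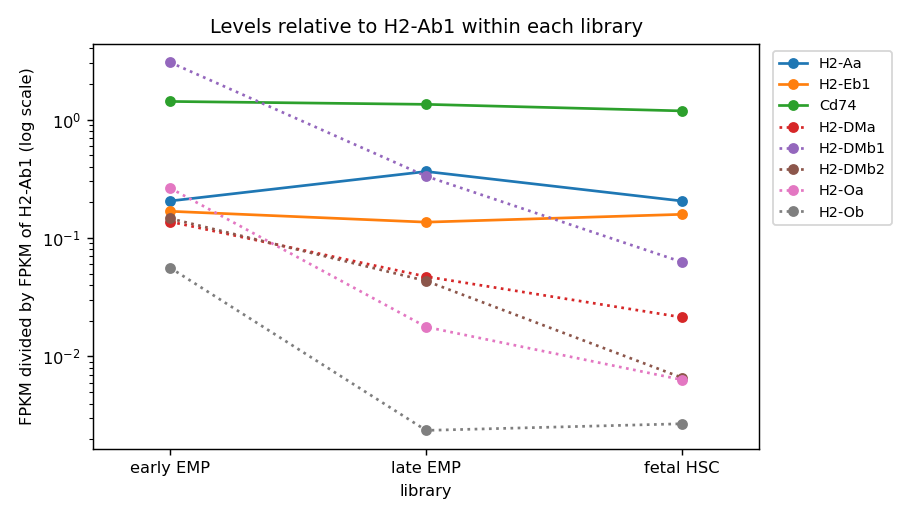
FPKM of 8 members divided by that of H2-Ab1 in the same library (log axis; 1 point per library, lines join libraries for reading only; Ciita not drawn). Cd74, H2-Aa and H2-Eb1 (solid) span at most 1.77 times, whereas the DM and DO genes (dotted) are lower in fetal HSC than in early EMP, H2-DMb1 at 0.0626 against 3.04.

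Counted at 2-fold, 4 of the 10 members were higher in late than in early EMP and none lower; with a pseudocount of 0.1 FPKM, H2-DMa was also higher and H2-Oa and H2-Ob were 2-fold lower (-1.04 and -1.29). Of the 14412 genes kept, 8.65% were that much higher, 10.8% lower and 19.4% apart in either direction. Between fetal HSC and early EMP 5 members were higher and none lower, beside 8.19% of genes kept that were higher, 17.8% lower and 26.0% either. Between fetal HSC and late EMP 7 were higher and none lower, beside 3.44% higher, 8.26% lower and 11.7% either. The members were chosen with these contrasts known, so the counts stand as a description. The genes higher over early EMP were H2-Ab1, H2-Aa, H2-Eb1 and Cd74, joined in fetal HSC by H2-DMa. H2-Oa and H2-Ob, both low, completed the 7 over late EMP; with a pseudocount of 5 FPKM in place of 1 their log2 fold changes there were 0.46 and 0.33, and 5 members remained. Each pair of comparisons shares a library. Over the 9 members kept, the median log2 fold change was 0.82, 2.48 and 1.66, over all 10 it was 0.75, 1.73 and 1.38, and over all genes kept it was 0, -0.11 and -0.10. The same 4 genes were at least 2-fold higher at both steps, from early to late EMP and from late EMP to fetal HSC, beside 0.229% of genes kept (33 genes).

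**Figure D4:**
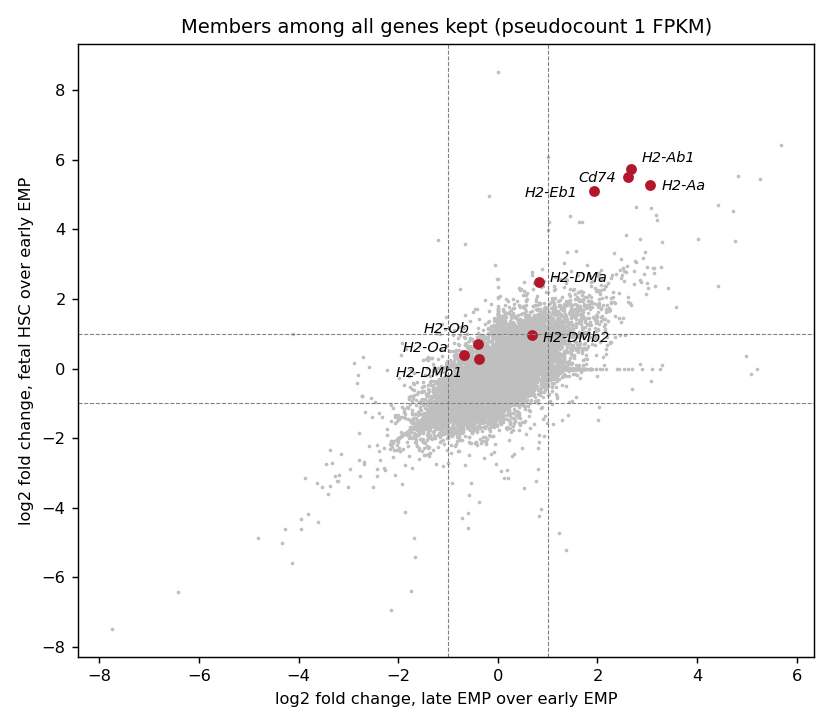
Log2 fold change of late EMP over early EMP (horizontal) and fetal HSC over early EMP (vertical), pseudocount 1 FPKM, for the 14412 genes kept (grey) and the 9 members kept (red); dashed lines mark 2-fold. Both axes share the early EMP library; H2-Ab1, Cd74, H2-Aa and H2-Eb1 lie together at 5.10 to 5.74 on the vertical axis, and H2-DMb1, H2-Oa and H2-Ob lie near the origin.

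The genes whose pair of fold changes over early EMP lay nearest to that of H2-Ab1 were other members first: Cd74 at a distance of 0.23 on the log2 scale, H2-Aa at 0.61 and H2-Eb1 at 0.99. The nearest genes outside the set followed at 1.10 and more, over the same 3 libraries. They were Elane, neutrophil elastase, at 0.42, 8.73 and 34.7 FPKM; Lsp1, a leukocyte actin-binding protein, at 0.74, 13.7 and 41.5 FPKM; and Il5, a cytokine that acts on eosinophils, at 0.56, 13.1 and 32.3 FPKM. Cd52, a lymphocyte surface glycoprotein, was at 3.69, 41.8 and 89.7 FPKM, and the melanocyte antigen Mlana at 0, 2.23 and 17.6 FPKM. Plbd1 was at 0.28, 2.47 and 25.97 FPKM, and Ly6c2, a surface protein of inflammatory monocytes, at 0.18, 2.65 and 20.9 FPKM. Tmem254c, at 0, 1.00 and 66.9 FPKM, has near-identical copies and its value is uncertain. All 8 were lowest in early EMP and highest in fetal HSC, an order that follows from their choice by nearness to H2-Ab1 and rests on 3 libraries.

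Genes that lie among the members on chromosome 17 differed less between libraries than the class II chains. Between the start of H2-Oa and the end of H2-Eb1 (34092379 to 34316674) the table held 13 genes, of which 8 were members. Of the other 5, 1 was at least 2-fold higher over early EMP in each comparison and none was lower. Between fetal HSC and late EMP none was 2-fold apart. Among all genes kept, 8.65% and 8.19% were higher over early EMP, and 11.7% were apart between fetal HSC and late EMP. The gene that was higher was Psmb9, an immunoproteasome subunit, at 11.7, 27.4 and 38.9 FPKM. Psmb8, its fellow subunit, was at 55.4, 61.2 and 101.5 FPKM, so both subunits had the library order of the chains with a smaller range. The peptide transporter genes Tap1 and Tap2 were at 8.54, 9.92 and 7.91 and at 25.3, 18.98 and 17.03 FPKM, and the chromatin reader Brd2 at 27.3, 22.8 and 18.9 FPKM. Psmb8, Tap1, Tap2 and Brd2 lay within 2-fold in all comparisons.

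The factors that bind the X and Y boxes were mostly present in each library, with a median log2 fold change over the 7 kept of 0.68, 0.71 and -0.04. RFX, which binds the X box, has 3 subunits: Rfx5 was at 3.96, 3.78 and 3.45 FPKM, Rfxap at 0.83, 0.25 and 1.18 FPKM, and Rfxank at 1.72, 6.52 and 5.85 FPKM. Of the NF-Y subunits, which bind the Y box, Nfya was at 1.34, 2.74 and 3.55 FPKM, Nfyb at 6.13, 11.8 and 11.7 FPKM, and Nfyc at 22.98, 22.6 and 21.9 FPKM. Creb1, which can bind the X2 box, was at 5.49, 10.1 and 9.58 FPKM. Of the 7 factors kept, 1 was at least 2-fold higher over early EMP in each comparison, Rfxank. None differed by 2-fold between fetal HSC and late EMP. Of all genes kept, 8.65% and 8.19% were that much higher over early EMP, and 11.7% were apart between fetal HSC and late EMP. Rfxap passed 1 FPKM only through fetal HSC.

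Among 12 inducers and regulators of class II, 1 was higher in late than in early EMP, 2 in fetal HSC than in early EMP and 1 in fetal HSC than in late EMP, with none lower, beside 8.65%, 8.19% and 3.44% of all genes kept that were higher; the medians were 0.09, -0.06 and -0.03. Irf8, a transcription factor of monocytes and dendritic cells, was at 0.21, 2.18 and 11.5 FPKM and was the gene that was higher in all 3. Prdm1, whose protein represses Ciita in plasma cells, was at 0.05, 0.53 and 1.98 FPKM, the second gene higher over early EMP in fetal HSC. Prdm1 passed 1 FPKM only through fetal HSC, so that count follows in part from the filter. Spi1, the myeloid factor PU.1, was at 55.4, 49.8 and 49.3 FPKM. The interferon gamma receptor chain Ifngr1 reached the highest level of the list, at 31.0, 56.1 and 59.8 FPKM. Irf1, an interferon-induced factor that activates a Ciita promoter, was lowest in fetal HSC, at 25.1, 24.2 and 13.3 FPKM.

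Interferon gamma is a classical inducer of class II outside professional antigen-presenting cells, so genes that respond to it were read as a list. Of 16 kept, 1 was higher and 1 lower in late than in early EMP, beside 8.65% and 10.8% of all genes kept. In fetal HSC 5 were higher and 2 lower than in early EMP, beside 8.19% and 17.8%. Against late EMP 4 were higher and 1 lower in fetal HSC, beside 3.44% and 8.26%. The medians were 0.03, 0.19 and 0.12. The chemokine gene Cxcl10 was at 1.07, 1.85 and 9.03 FPKM, Cxcl9 at 0.02, 0.02 and 1.67 FPKM and the GTPase Gbp2 at 3.10, 6.16 and 9.51 FPKM. In the other direction, the GTPases Igtp and Irgm2 were at 13.7, 12.8 and 5.27 FPKM and at 3.54, 0.89 and 1.00 FPKM. The list also holds Psmb9, counted here as higher over early EMP, and Psmb8, its most abundant gene, both given above. Gbp7 was at 10.1, 5.52 and 12.7 FPKM and Irgm1 at 33.7, 33.1 and 22.6 FPKM. Cxcl9 and Gbp6, the latter at 0.11, 0.15 and 2.13 FPKM, passed 1 FPKM only through fetal HSC. They were counted as higher in fetal HSC over each other library, so those counts follow in part from the filter.

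Antigen-processing genes showed no common direction. Of 9, 1 was higher in late than in early EMP and none lower. In fetal HSC 2 were higher and 1 lower than in early EMP, and 1 higher and 2 lower than in late EMP. Of all genes kept, 8.65%, 8.19% and 3.44% were higher and 10.8%, 17.8% and 8.26% lower in the same comparisons. Ctsd, an aspartic protease of lysosomes, was the most abundant, at 947, 967 and 522 FPKM. Ctss, the protease that trims the invariant chain in dendritic and B cells, was at 11.3, 8.88 and 20.7 FPKM, and Ctsl, which does so in thymic epithelium, at 3.18, 6.66 and 3.43 FPKM. Ifi30, a thiol reductase that opens disulfide bonds of antigens, was at 4.95, 8.02 and 14.5 FPKM. Lgmn, an asparaginyl protease that can start the cleavage of the invariant chain, was lower at each step, at 19.2, 10.8 and 3.81 FPKM. Sppl2a, which removes its last membrane fragment, was at 8.67, 14.0 and 5.05 FPKM.

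Of the genes for turnover and accessory surface proteins, the ubiquitin ligase gene Marchf1, which lowers surface class II, was at 0, 0.60 and 0.53 FPKM, and its relative Marchf8 at 23.5, 15.6 and 16.8 FPKM. Among the tetraspanins, which cluster class II at the membrane, Cd63 was the most abundant, at 1625, 1164 and 1218 FPKM. Cd9, at 71.3, 138.7 and 168.9 FPKM, was the 1 gene of 6 kept that was 2-fold higher, in fetal HSC over early EMP. In that comparison 8.19% of all genes kept were higher. Costimulatory genes were mostly low. Cd80 was at 0, 0 and 0.04 FPKM, Cd40 at 0.45, 0.38 and 0.83 FPKM and Cd86 at 3.77, 4.15 and 7.12 FPKM. Cd83, a surface protein that stabilises class II and Cd86 on dendritic cells, was at 2.74, 5.82 and 17.9 FPKM. It was the 1 gene of 4 kept that was 2-fold higher in fetal HSC than in each other library. The shares of all genes kept were 8.19% over early EMP and 3.44% over late EMP. The checkpoint ligand Cd274 was the most abundant, at 21.1, 28.4 and 29.6 FPKM.

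Markers of cells that carry class II at rest were read beside these values. Of 15 dendritic and Langerhans cell markers in the table, 3, 2 and 1 were at 0. Their summed level was 679.7, 362.9 and 300.5 FPKM, nearly all from the lectins Clec10a (440, 285 and 280 FPKM) and Mgl2 (231, 72.0 and 4.38 FPKM). Without these 2, a restriction chosen after the values were seen, it was 8.53, 5.66 and 15.9 FPKM. The defining genes did not share one order. Epcam, a Langerhans cell adhesion protein, was highest in early EMP, at 4, 0.67 and 1.55 FPKM. Cd209a and the transcription factor Zbtb46 were highest in late EMP, at 0.05, 1.20 and 0.39 FPKM and at 0.11, 0.67 and 0.62 FPKM. Others were at or near 0 in early EMP and highest in fetal HSC: Itgax, the integrin CD11c, was at 0, 0 and 0.72 FPKM, the growth factor receptor Flt3 at 0.07, 0.59 and 3.16 FPKM, the chemokine receptor Xcr1 of cross-presenting dendritic cells at 0.03, 0.52 and 2.96 FPKM, and Clec9a at 0, 0.23 and 0.44 FPKM. Ccr7, at 0.04, 0.47 and 0.99 FPKM, Batf3, at 0.11, 0.11 and 0.41 FPKM, and Ly75, at 0.22, 0.03 and 0.72 FPKM, were also highest in fetal HSC. So was Kmo, at 3.46, 1.14 and 3.58 FPKM, which was counted as higher in fetal HSC over late EMP. Ffar2 was highest in early EMP, at 0.44, 0 and 0.41 FPKM. Siglech, a marker of plasmacytoid dendritic cells, was at 0, 0.03 and 0 FPKM. Of the 7 markers kept, 1, 2 and 3 were higher and 3, 1 and 1 lower in the 3 comparisons. Beside them, 8.65%, 8.19% and 3.44% of all genes kept were higher and 10.8%, 17.8% and 8.26% lower. Cd209a, the 1 counted as higher in late EMP over early EMP, passed 1 FPKM only through late EMP. Flt3 and Xcr1 are the 2 counted as higher in fetal HSC over early EMP and were also counted over late EMP. They passed 1 FPKM only through fetal HSC, so these counts follow in part from the filter. The part of dendritic cells in the class II series was not tested.

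Macrophage and monocyte markers ran both ways. The 18 genes summed to 137.6, 123.4 and 128.6 FPKM, with none at 0 in either EMP library and 2 at 0 in fetal HSC. The complement genes C1qa, C1qb and C1qc of resident macrophages were lowest in fetal HSC, with C1qa at 14.8, 12.2 and 3.05, C1qb at 20.4, 13.3 and 3.96 and C1qc at 17.1, 16.0 and 3.68 FPKM. Folr2, a folate receptor, and Csf1r, the macrophage growth factor receptor and gene of the driver, were also lowest there, at 8.09, 5.42 and 3 FPKM and at 5.70, 2.54 and 1.47 FPKM. Cd68 was at 17.8, 6.44 and 9.70 FPKM. The macrophage receptor genes Mertk and Fcgr1 stayed below 1 FPKM in every library, at 0.34, 0.04 and 0 FPKM and at 0.35, 0.08 and 0 FPKM. Lyz2, lysozyme, was the most abundant, at 37.6, 39.8 and 44.8 FPKM. Aif1, at 2.04, 3.88 and 20.03 FPKM, Ly6c2, given above, and the monocyte chemokine receptor Ccr2, at 0.11, 5.56 and 6.66 FPKM, were highest in fetal HSC. Of 15 kept, 4 were higher and 2 lower in late than in early EMP, beside 8.65% and 10.8% of all genes kept. In fetal HSC 3 were higher and 5 lower than in early EMP, beside 8.19% and 17.8%. Against late EMP 3 were higher and 5 lower in fetal HSC, beside 3.44% and 8.26%. Adgre1, at 0.5, 2.18 and 0.04 FPKM, and Cd163, at 0.02, 1.57 and 0.24 FPKM, passed 1 FPKM only through late EMP. Adgre1 and Cd163 are among the 4 higher in late than in early EMP and among the 5 lower in fetal HSC than in late EMP. Both counts follow in part from the filter. The part of monocytes and macrophages was not tested.

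The B cell marker list held 8 genes, which summed to 37.6, 25.8 and 36.8 FPKM, with 1, 3 and 3 genes at 0. Ms4a1, which encodes CD20, was at 0.54, 0 and 0 FPKM. The most abundant were the adaptor Blnk, at 25.4, 15.4 and 17.9 FPKM, and Cd79b, at 11.5, 9.34 and 16.5 FPKM. Cd79a was at 0.05, 0 and 1.88 FPKM. Of the 4 genes kept, Cd79a alone was 2-fold higher in fetal HSC than in each other library, and it passed 1 FPKM only there. Of all genes kept, 8.19% were that much higher over early EMP and 3.44% over late EMP. Cd22 was at 0, 0.10 and 0.40 FPKM. The part of B cells in the class II series was not tested.

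Markers of other cells were also read. The 9 neutrophil genes summed to 3.19, 53.9 and 126.0 FPKM, with Mpo, myeloperoxidase, at 0.88, 39.2 and 47.9 FPKM, the protease gene Prtn3 at 0.08, 5.38 and 14.4 FPKM, S100a8 at 1.30, 0 and 28.9 FPKM and Elane given above. These 4 make up nearly all of the sum and were the genes kept. Of them, 3, 4 and 3 were higher and 1, 0 and 0 lower in the 3 comparisons, with medians of 2.67, 4.24 and 1.57. Beside them, 8.65%, 8.19% and 3.44% of all genes kept were higher and 10.8%, 17.8% and 8.26% lower. The other 5 were near 0, among them Ly6g at 0.42, 0 and 0 FPKM, Csf3r at 0.04, 0.26 and 0.02 FPKM and Cxcr2 at 0.05, 0.22 and 0.04 FPKM. With these 5 included, the median log2 fold change over all 9 was 0.22, 0.03 and 0. The 12 T and innate lymphoid genes summed to 37.4, 48.0 and 62.8 FPKM. Of the 10 kept, 3, 5 and 4 were higher and 1, 1 and 0 lower in the 3 comparisons. Of all genes kept, 8.65%, 8.19% and 3.44% were higher and 10.8%, 17.8% and 8.26% lower. Lck, Cd2, Thy1 and Cd8a passed 1 FPKM only through fetal HSC and Zap70 only through late EMP. These counts therefore follow in part from the filter. Of the CD3 chains, Cd3e was at 13.5, 0 and 0.63 FPKM and Cd3g at 1.55, 5.36 and 12.02 FPKM. The 9 basophil and eosinophil genes summed to 2884, 1035 and 1834 FPKM, with the protease gene Prss34, which mast cells can also express, at 2386, 459 and 989 FPKM. Mcpt8 was at 14.5, 17.4 and 35.9 FPKM and Prg3 at 3.65, 5.26 and 22.3 FPKM. Keratinocyte markers came to at most 5.48 FPKM in sum and endothelial and fibroblast markers to at most 14.5 FPKM, both highest in late EMP. The part of these cells in the series was not tested.

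**Figure D5:**
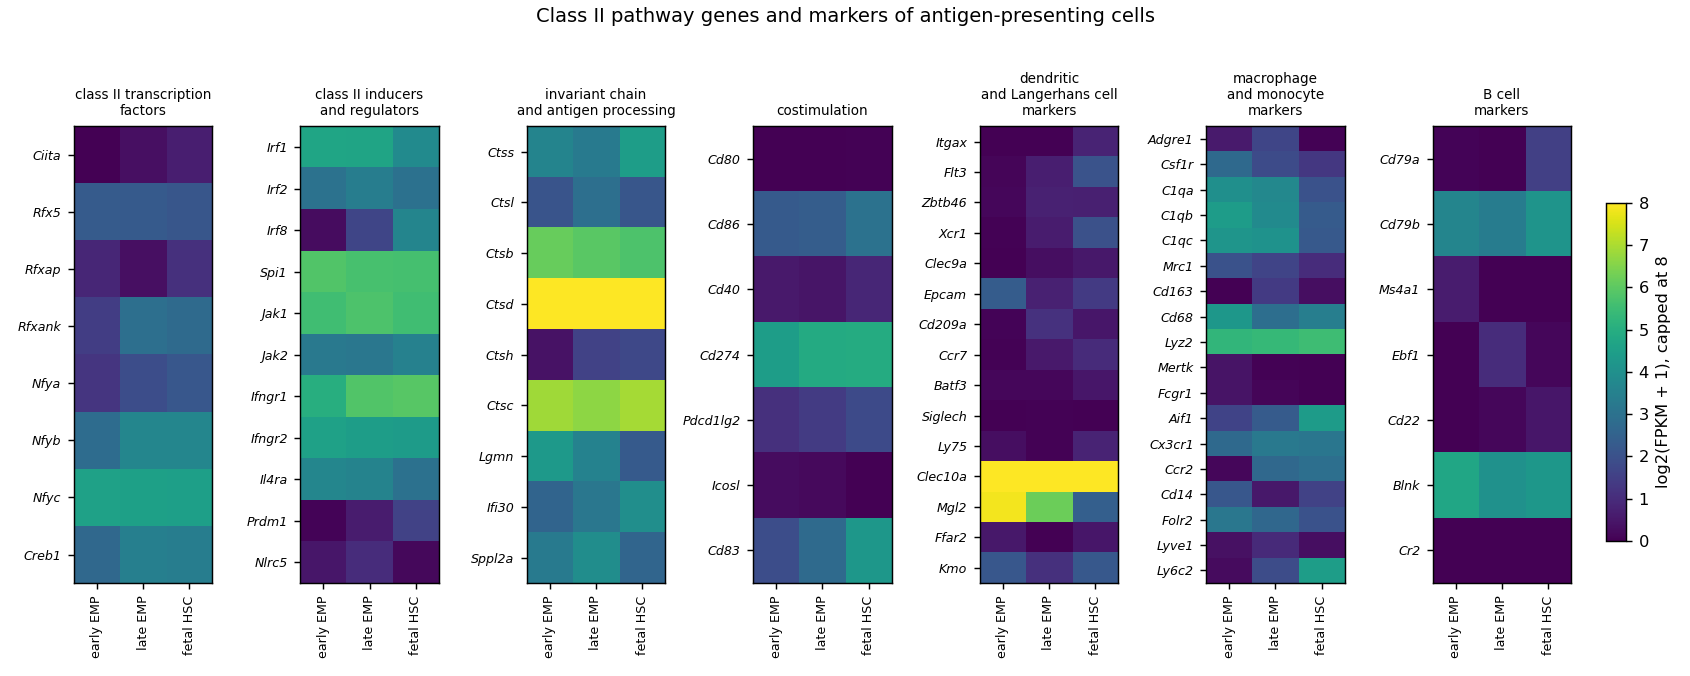
Log2(FPKM + 1), coloured from 0 to 8 and capped there, of class II pathway genes and of markers of dendritic cells, macrophages and B cells, with 1 column per library (early EMP, late EMP, fetal HSC). Most transcription factors and processing genes keep their colour across libraries; Irf8, Cd83, Flt3, Xcr1, Aif1 and Ly6c2 are brightest in fetal HSC (Irf8 at 11.5 FPKM), while Mgl2, Lgmn and the C1q genes are darkest there.

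MHC class I displays peptides from within the cell. Of 12 class I pathway genes kept, none was 2-fold apart between late and early EMP, 1 was lower in fetal HSC than in early EMP, and 1 was higher and 1 lower in fetal HSC than in late EMP, beside 19.4%, 26.0% and 11.7% of all genes kept that were apart in either direction. These were the non-classical genes H2-T10, lower in both at 3.25, 7.22 and 0.64 FPKM, and H2-T22, at 12.8, 8.36 and 19.2 FPKM; such genes have close copies and their single values are uncertain. Class I genes outside the list, chosen after their values were seen, were 2-fold apart between late and early EMP: H2-L and H2-Bl, with log2 fold changes of 1.38 and 1.98, and H2-Q8 and H2-Q9, listed at 0 in early EMP. B2m, the light chain, was at 1658, 1369 and 1524 FPKM, and the heavy chain H2-K1 at 175, 326 and 263 FPKM. In the fetal HSC library H2-Ab1 and Cd74, at 541 and 639 FPKM, thus reached levels between those of H2-K1 and of the heavy chain H2-D1, at 843, 1151 and 663 FPKM. In early EMP they were at 9.11 and 12.9 FPKM.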

How the data were processed

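RNA was measured in 3 libraries of sorted skin mast cells, 1 per origin; RNA was extracted with TRIzol and sequenced on an Illumina HiSeq, per the labels' protocols. The authors deposited FPKM values per gene with 2 decimals, per the file headers; Bowtie2 and RSEM are named, with mm10 and GRCm38, in the submitters' processing notes. The column headed as a control was matched to the early EMP library through its description. FPKM is a share of the library, so very abundant protease genes affect every value, and RSEM divides reads between similar transcripts.

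Genes at 1 FPKM or more in at least 1 library were kept (14412 of 20677, of which 3064 rows have no symbol); 9 of 10 members passed. Fold changes used a pseudocount of 1 FPKM, and 2-fold was counted. No test was possible with 1 library per group. The members and gene lists were chosen with earlier results of these data known. A few listed genes are not reported here. Named were all members, genes of the pathway lists, leading genes of the marker lists and the 8 genes nearest to H2-Ab1 at 10 FPKM or more, predicted genes left out. All 22 symbols turned into dates were restored by gene identifier.

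Depth was implied from genes with 1 transcript, as the step and length offset that brought most low values within 0.15 of a whole number of fragments (about 14.5, 15.5 and 15.6 M fragments in all): 81.2%, 80.5% and 75.8% of values, by library in the report's order, where 30% would do so by chance for a fixed step. The search covered a preset range of depths, and the offset was fitted for each library (100, 140 and 60 bases). Transcript sequences and lengths came from GENCODE, promoters and coordinates from RefSeq, both on GRCm38. Steps were tested on simulated data. Alternatives were 2 other pseudocounts, 2 filters, 3 rescalings, leaving out rows without a symbol, and summing H2-DMb1 with H2-DMb2. Python 3.11.15, numpy 2.4.6, pandas 2.3.3, Biopython 1.88 and matplotlib 3.10.9 were used.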

Additional observations from a re-analysis of the deposited data

How the results depend on the processing

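The 4 leading genes, H2-Ab1, H2-Aa, H2-Eb1 and Cd74, stayed at least 2-fold higher in every comparison under every pseudocount and rescaling run, and no member changed sign in any comparison. A pseudocount of 0.1 FPKM raised the members 2-fold apart between late and early EMP from 4 to 7, of which H2-Oa (-1.04) and H2-Ob (-1.29) were lower and H2-DMa higher. It raised those between fetal HSC and early EMP from 5 to 7, and median-of-ratios factors raised them to 6, all higher. Values also moved by over 1.5 times as follows. The median over the members was 3.11 for fetal HSC over early EMP and 2.27 over late EMP with a pseudocount of 0.1 FPKM, and 1.41 and 1.05 with 5 FPKM. With the filter at 5 FPKM, which keeps 6 members, it was 2.27 for late over early EMP, 5.19 for fetal HSC over early EMP and 2.56 over late EMP. Without a filter it was 1.73 for fetal HSC over early EMP, and 3.79 with H2-DMb1 and H2-DMb2 summed. Genes of the pathway and marker lists at least 2-fold apart numbered 26, 41 and 34 in the 3 comparisons. They numbered 40 in the first with a pseudocount of 0.1 FPKM, 7, 22 and 14 with 5 FPKM, and 14 in the first and 21 in the third with the filter at 5 FPKM. Over all genes, a pseudocount of 5 FPKM left 327, 460 and 195 genes apart, and 0.1 FPKM gave 4522, 5253 and 3615, against 2802, 3748 and 1686. The filter at 5 FPKM left 767, 1098 and 524. Leaving out rows without a symbol left 1359, 1921 and 930 of 11529 genes kept. Of these, 870 were higher and 489 lower in the first comparison, 931 and 990 in the second, and 313 and 617 in the third. The shares higher were then 7.55%, 8.08% and 2.71%. The shares lower or apart were smaller than those set beside the gene lists above, and those lists hold only genes with a symbol. With 1 library per group no leave-one-out value exists. No paired analysis was possible because each group has 1 library. Members under 1 FPKM rest on few fragments.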

Other observations

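Several class I genes of the MHC differed between libraries without following the class II order; levels stand for early EMP, late EMP, then fetal HSC. H2-L was at 75.1, 196.9 and 1.05 FPKM, H2-Q1 at 4.56, 8.72 and 0.14 FPKM and H2-Bl at 0.15, 3.55 and 0 FPKM. H2-Q8 and H2-Q9 were listed at 0 in early EMP and stood at 1.87 and 1.82 FPKM and at 3.04 and 1.19 FPKM in the late EMP and fetal HSC libraries. These genes were chosen after their values were seen. Class I genes have near-identical copies, so the single values are uncertain. The mice were of mixed background, and its part in these values was not tested.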
